A study of Mus musculus with 6 samples.

Results

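The Ighv loci are the variable (V) segments of the mouse immunoglobulin heavy chain. They were taken as every locus whose gene name starts with Ighv, counted once each, which gave 186 loci of 426574 in the deposited table and of 44794 with a gene name. The RNA came from spleens of mice treated with imiquimod, a TLR7 agonist, 3 times a week for 4 weeks. The 3 B6.Sle1b libraries came from mice with the lupus susceptibility interval Sle1b on a C57BL/6 background, given as the autoimmune-prone control. The 3 Sle1b.IFNγR-/- libraries came from mice that also lack the interferon-γ receptor. Both groups carry Sle1b and both were treated, so untreated mice and mice without Sle1b are not part of the comparison. The labels used here give neither the receptor subunit that was disrupted nor the ages, and do not say that each library is a separate mouse. The p-values therefore measure the spread between these samples, which may be technical. The comparison asks how spleen transcripts of TLR7-stimulated mice differ without interferon-γ signalling, here for the V segments that B cells use in their antibodies.

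A B cell builds its heavy chain by joining a V, a D and a J segment, and transcribes the joined exon together with a constant region. Segments of similar sequence form families, of which Ighv1 (also called J558) is the most numerous in the mouse and lies mostly far from the D segments, while Ighv5 and Ighv2 lie mostly near them. A resting B cell holds little of this RNA and an antibody-forming cell holds a great deal, so in whole spleen the V segment level reflects both cell number and RNA per cell. In these bulk samples, fewer cells of a type and less RNA per cell cannot be told apart. Some V segments are pseudogenes, which cannot encode a full heavy chain. The segments lie on chromosome 12 (GRCm38) between positions 113572927 and 116010093, and the sequences and coordinates are from GENCODE mouse release 21.

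A few of them show what a functional segment looks like and how families differ, and they lead 1 of the libraries. The last 300 bases of each transcript are printed 5′ to 3′. Ighv1-9 (chr12:114583569-114584002), Ighv3-6 (chr12:114288152-114288582) and Ighv8-12 (chr12:115647945-115648387) are functional segments on the minus strand, and are the highest Ighv loci in B6.Sle1b replicate 1. The capitals mark the codons up to that of the conserved cysteine, which lies near the 3′ end of the V segment.
Ighv1-9: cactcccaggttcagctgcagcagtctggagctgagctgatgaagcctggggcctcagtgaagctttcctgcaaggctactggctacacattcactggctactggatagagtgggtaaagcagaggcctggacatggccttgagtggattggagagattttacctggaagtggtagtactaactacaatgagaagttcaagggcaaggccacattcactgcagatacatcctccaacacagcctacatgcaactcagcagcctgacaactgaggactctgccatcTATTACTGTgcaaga
Ighv3-6: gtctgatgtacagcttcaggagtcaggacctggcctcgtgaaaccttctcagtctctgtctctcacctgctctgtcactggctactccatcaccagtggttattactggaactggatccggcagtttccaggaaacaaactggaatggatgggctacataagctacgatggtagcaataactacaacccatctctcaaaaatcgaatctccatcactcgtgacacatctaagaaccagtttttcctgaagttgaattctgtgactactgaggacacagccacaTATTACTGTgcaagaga
Ighv8-12: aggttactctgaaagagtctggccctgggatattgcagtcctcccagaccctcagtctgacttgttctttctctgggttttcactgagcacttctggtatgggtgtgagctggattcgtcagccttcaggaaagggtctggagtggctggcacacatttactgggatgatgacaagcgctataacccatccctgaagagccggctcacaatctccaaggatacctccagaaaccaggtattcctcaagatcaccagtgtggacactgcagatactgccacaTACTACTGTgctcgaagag

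Over these 300 bases Ighv1-9 shares 58.7% of its bases with Ighv3-6 and 55.7% with Ighv8-12, and Ighv3-6 shares 62.3% with Ighv8-12, all from different families. The marked codons follow the pattern TANTNNTGN, limited to T or C at the end of each codon and to A or T in the middle of the second. The transcript strand of the last 300 bases was read, and the match had to lie within 40 bases of the end. The pattern was found in 107 of 112 functional segments, none of which had a stop codon upstream of it in the same frame. It was found in 38 of 71 pseudogenes, of which 33 had such a stop.

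Many segments are near-copies of each other, so reads could be counted at the wrong member. Among 95 functional segments the closest other Ighv transcript was 95.5% identical at the median (range 79.0% to 99.7%), and 54 had a neighbour of at least 95% identity. A median of 76.5% of a segment's 50-base windows occurred in no other Ighv transcript. Values of single segments are therefore less certain than those of families, and how the authors treated reads that map to several places is not given in the sources used here.

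Each library held between 4394283 and 6349836 fragments in all, of which few came from Ighv loci. The fragments on Ighv loci numbered 3582, 775 and 1004 in B6.Sle1b replicates 1 to 3 and 808, 646 and 610 in Sle1b.IFNγR-/- replicates 1 to 3. B6.Sle1b replicate 1 stood apart across the table, since named loci held 27.0% of its values against 17.5% to 19.95% in the other 5 libraries. Its summed B cell markers were 2390 scaled counts against 1054 to 1365 in the others, its antibody-forming cell markers 1806 against 329 to 528, and its erythroid markers 2303 against 185 to 771. Marker sums of other cells were highest in it too. Those of monocytes and macrophages were 1871 against 344 to 631, and those of T cells 669 against 333 to 458. The part of RNA quality or cell make-up in the values of B6.Sle1b replicate 1 was not tested. All 12 B cell markers of the list met the minimum level for testing, a mean of 10 scaled counts. Loci of silent genes can reach that level too, so meeting it does not by itself show B cell RNA.

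The Ighv sum was not separated between the genotypes, and B6.Sle1b replicate 1 alone was far above the rest. The sum was 3650, 637 and 941 scaled counts in B6.Sle1b replicates 1 to 3, where a scaled count is a fragment count adjusted between libraries by the authors. In Sle1b.IFNγR-/- it was 707, 726 and 731, inside the range of B6.Sle1b. As a share of all values this was 0.0313% ± 0.0281 in B6.Sle1b and 0.0137% ± 0.000165 in Sle1b.IFNγR-/- (SD, n = 3 each). The difference of -0.018 percentage points had a two-sided exact permutation p of 0.4, and with 3 against 3 libraries the smallest p is 0.1. Without B6.Sle1b replicate 1 the difference was -0.0014 percentage points. The SD in B6.Sle1b comes almost wholly from replicate 1, while the 3 Sle1b.IFNγR-/- libraries lay close together.

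The loci split into classes that behaved differently. Of the 186 loci, 113 carry a functional V segment and 73 a pseudogene, by GENCODE, with 2 loci of its V-like class counted among the 73. In 32 of them the authors' locus also holds transcripts that Cufflinks assembled from reads, which can carry fragments from outside the V exon. This split was made after the data were seen. The functional loci with no assembled transcript (95 loci) summed to 2701, 88.0 and 276 scaled counts in B6.Sle1b against 135, 158 and 133 in Sle1b.IFNγR-/-. The groups overlapped, since the Sle1b.IFNγR-/- values lie between B6.Sle1b replicates 2 and 3 (exact permutation p = 0.4). The difference was -880 scaled counts and -39.8 without B6.Sle1b replicate 1. Replicate 1 was 17.1 times the mean of the other 5 libraries. In loci with assembled transcripts, the pseudogenes (14 loci) summed to 235, 290 and 285 in B6.Sle1b against 267, 251 and 264 in Sle1b.IFNγR-/-, and replicate 1 was 0.868 times the mean of the others. These pseudogene loci were thus at nearly the same level in all 6 libraries, including B6.Sle1b replicate 1, where all marker sums were highest.

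**Figure D1:**
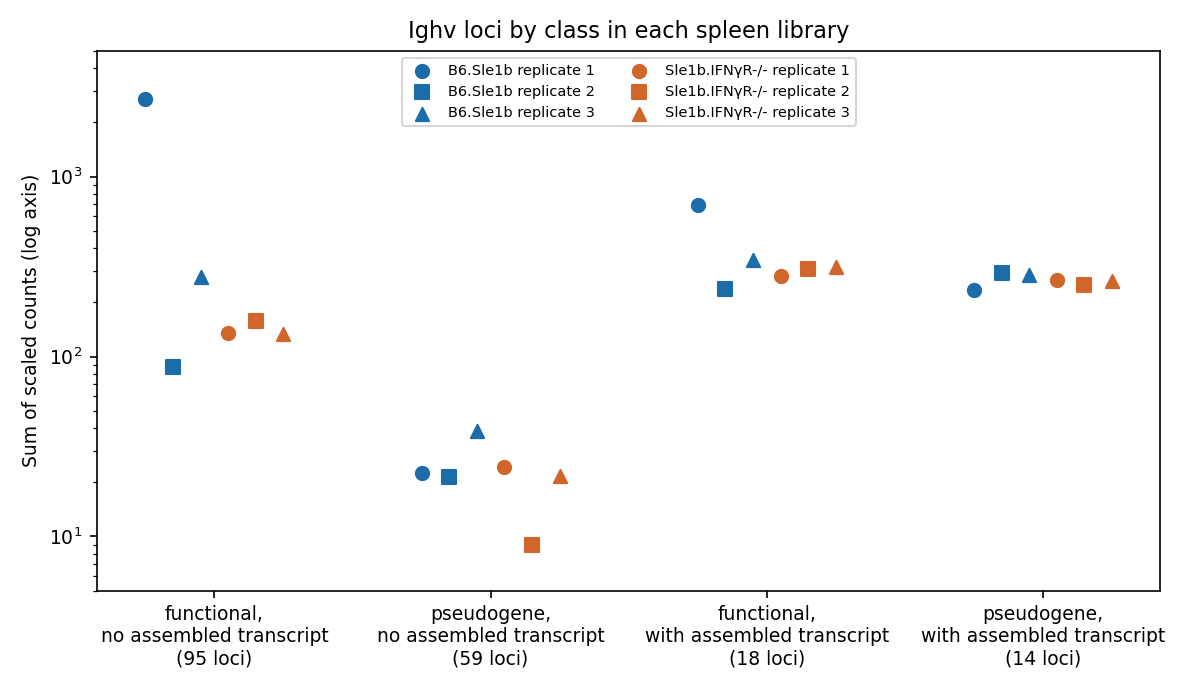
Sum of scaled counts (log axis) over the Ighv loci of each class in each library; every point is 1 library, with blue for B6.Sle1b and orange for Sle1b.IFNγR-/-. Functional loci with no assembled transcript reach 2701 in B6.Sle1b replicate 1 and 88.0 to 276 in the other 5 libraries, while pseudogene loci with assembled transcripts stay between 235 and 290 in all 6.

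The functional loci with assembled transcripts (18 loci) lay between these, at 691, 238 and 342 in B6.Sle1b against 281, 308 and 313 in Sle1b.IFNγR-/-. Their difference was -123 scaled counts and turned to 10.5 without B6.Sle1b replicate 1, which was 2.33 times the mean of the other libraries. The pseudogenes with no assembled transcript (59 loci) summed to 22.4, 21.4 and 38.4 and to 24.5, 8.99 and 21.6. Per locus those pseudogenes averaged 0.152 to 0.651 scaled counts in the 6 libraries. The functional loci of the same kind averaged 28.4, 0.926 and 2.90 in B6.Sle1b against 1.42, 1.67 and 1.40 in Sle1b.IFNγR-/-. Functional segments were thus above pseudogenes of like length in every library, although in 5 of the 6 by under 3 scaled counts per locus. Loci with assembled transcripts held 25.4% of the Ighv sum in B6.Sle1b replicate 1 and 66.6% to 82.8% elsewhere.

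Olfactory receptor (Olfr) loci, which spleen is not known to use, gave a level for silent genes in the same libraries. Olfr loci with no assembled transcript (927) had a median of 2.25 to 3.75 scaled counts and a 95th percentile of 13.1 to 15.6. Those with assembled transcripts (314) had medians of 18.1 to 20.4. Olfr exons are longer than V segments, and these levels are not given per length. Functional Ighv loci with no assembled transcript exceeded the silent 95th percentile 45 times of 95 in B6.Sle1b replicate 1, and 0 and 2 times in replicates 2 and 3. In Sle1b.IFNγR-/- it was 1, 0 and 0 times, and no pseudogene of this kind exceeded it in any library. By this level, which was not adjusted for length, single functional segments exceeded the silent range in number in 1 library only. How many would exceed it per length was not tested.

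The V segments were then set against the constant regions (8 genes), which lie in the same transcripts. Constant regions summed to 23724, 3257 and 5003 scaled counts in B6.Sle1b against 2632, 2624 and 2922 in Sle1b.IFNγR-/-, with no overlap (exact permutation p = 0.1). Their difference was -7936 scaled counts and -1404 without B6.Sle1b replicate 1. Per 100 constant region values the full Ighv sum was 15.4, 19.6 and 18.8 in B6.Sle1b against 26.8, 27.7 and 25.0 in Sle1b.IFNγR-/-. The groups did not overlap, and the difference was 8.59 (exact permutation p = 0.1, the smallest possible). In functional loci with no assembled transcript the ratio was 11.4, 2.70 and 5.51 against 5.12, 6.04 and 4.55. There the groups overlapped and the difference was -1.30 (exact permutation p = 0.8). That direction rests on B6.Sle1b replicate 1, without which the difference was 1.13, in the same direction as for the full sum. With only the pseudogenes left out, the 113 functional loci gave 14.3, 9.99 and 12.3 against 15.8, 17.8 and 15.3, without overlap and 4.05 higher in Sle1b.IFNγR-/- (exact permutation p = 0.1). Per 100 values of Ighm alone, the full Ighv sum was 62.4, 53.8 and 41.7 against 63.1, 72.3 and 58.3. There the groups overlapped (exact permutation p = 0.2). Loci with assembled transcripts made up 66.6% to 82.8% of the full sum outside B6.Sle1b replicate 1.

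The light-chain κ V segments (Igkv) gave a comparison within the same cells. The 84 functional Igkv loci with no assembled transcript summed to 2402, 118 and 318 in B6.Sle1b against 125, 119 and 123 in Sle1b.IFNγR-/-. Replicate 1 was 14.96 times the mean of the others, near the 17.1 times of the heavy chain. Functional Ighv per 100 functional Igkv was 112, 74.8 and 86.7 in B6.Sle1b against 108, 133 and 108 in Sle1b.IFNγR-/-. These values overlapped (exact permutation p = 0.3), so a shift between heavy and light chain segments was not separated from the spread.

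Single segments showed 2 patterns, and the first was a level that was high in a single library. Ighv1-9, from the largest family, was at 243, 1.64 and 10.3 scaled counts in B6.Sle1b against 0, 5.62 and 5.99 in Sle1b.IFNγR-/-. Its 238 fragments of 3582 in B6.Sle1b replicate 1 were 6.64% of the Ighv sum (95% Wilson interval 5.87% to 7.51%, counting error only). It was high in that library alone, and fragments made by amplification are not independent molecules. Ighv3-6 was at 165, 5.75 and 20.6 in B6.Sle1b against 17.5, 11.2 and 7.19 in Sle1b.IFNγR-/-. It was among the 10 highest functional segments per kilobase in all 6 libraries, and its share of their sum was 6.11%, 6.54% and 7.48% against 12.99%, 7.09% and 5.41%. Ighv8-12 was at 155, 0 and 12.2 against 1.75, 5.62 and 1.20.

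The second pattern was a steady level in every library. Ighv1-23, a functional segment whose locus holds assembled transcripts, was at 106, 64.9 and 83.4 scaled counts in B6.Sle1b against 66.5, 78.7 and 83.8 in Sle1b.IFNγR-/-. The pseudogene Ighv1-25 was at 68.3, 97.8 and 64.7 against 61.2, 68.6 and 81.5. The merged locus of the pseudogene Ighv1-38 and of Ighv1-39 was at 58.1, 44.4 and 54.4 against 39.3, 43.8 and 59.9. These were the 3 highest loci in every library except B6.Sle1b replicate 1. Ighv1-25 cannot encode a full heavy chain, and the merged locus was classed by Ighv1-38 alone. Ighv1-77, Ighv1-86, Ighv6-1, Ighv1-73, Ighv10-1 and Ighv1-76 also had mean shares among the 10 highest, of 2.16% to 3.28% of the Ighv sum, and all 6 loci hold assembled transcripts.

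Ighv5-17, whose locus also holds assembled transcripts, was uneven, at 114, 3.29 and 34.7 in B6.Sle1b against 26.2, 6.74 and 9.58 in Sle1b.IFNγR-/-. Of 2 segments known from innate-like B-1 cells, Ighv11-2 was near the limit of detection outside B6.Sle1b replicate 1, and Ighv12-3 in every library. Ighv11-2 was at 18.3, 0 and 5.62 against 1.75, 4.50 and 1.20, and Ighv12-3 at 0, 0 and 1.87 against 2.62, 0 and 2.40. Ighv7-1, used in antibodies to phosphorylcholine, was at 32.6, 0 and 2.81 against 0.874, 0 and 1.20. Ighv5-2, which lies nearest the D segments among the functional loci of that class, was at 8.15 in B6.Sle1b replicate 1 and at 0 in the rest. For scale, 3 fragments are worth 2.47 to 3.59 scaled counts, so for these segments most libraries lie within what a count of 0 allows.

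**Figure D2:**
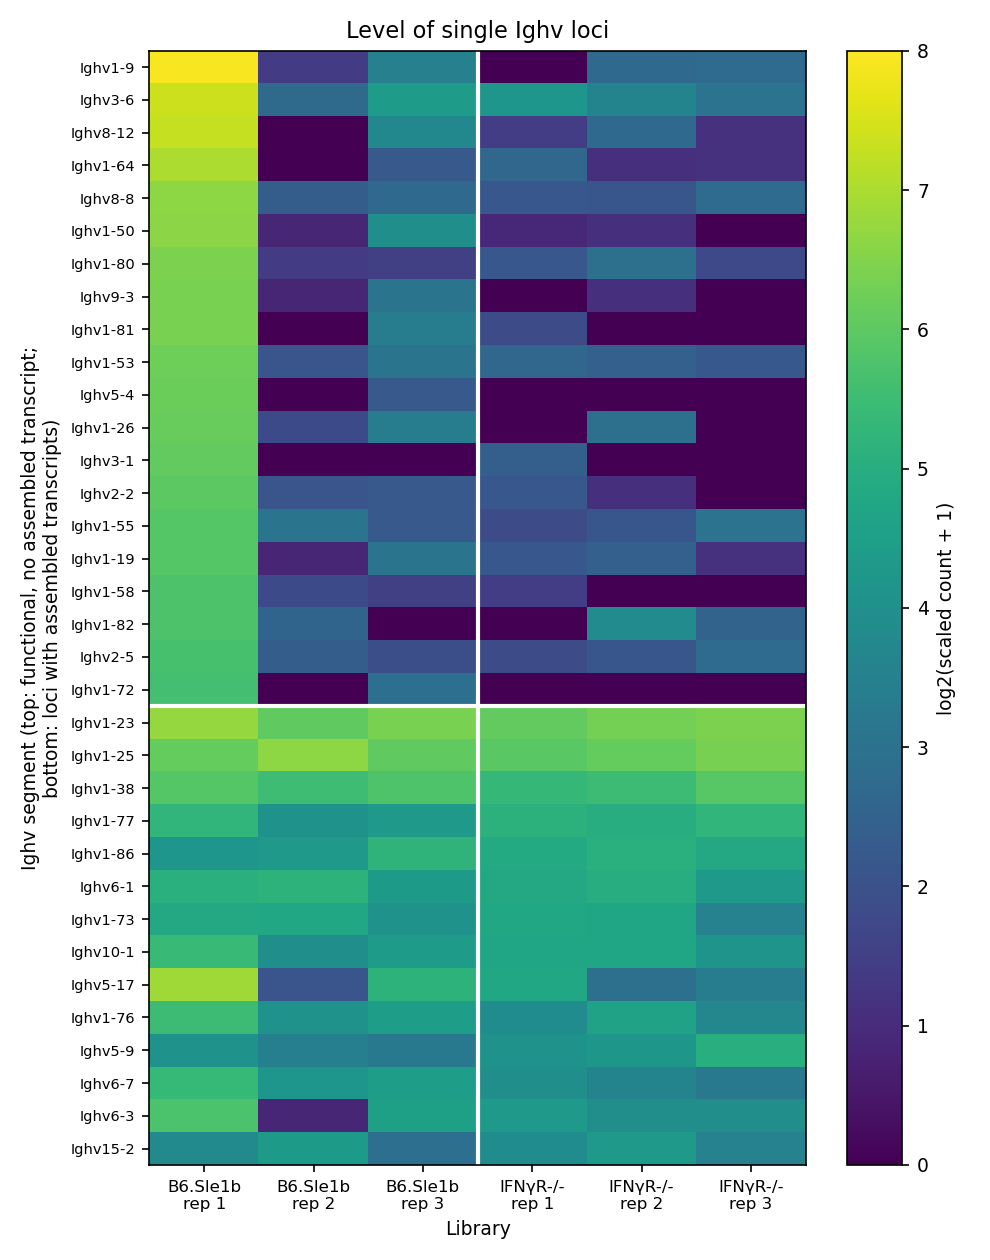
Level of single Ighv loci as log2(scaled count + 1), with 1 column per library; the upper rows are the 20 highest functional loci with no assembled transcript in B6.Sle1b replicate 1 and the lower rows the 14 loci with assembled transcripts of highest mean share. The upper rows are bright in B6.Sle1b replicate 1 only (Ighv1-9 at 243 scaled counts), which is how they were picked, and most lower rows are near the same colour across all 6 columns (Ighv1-23 at 64.9 to 106), with Ighv5-17 and Ighv6-3 as exceptions.

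Over all Ighv loci, 150 had a value above 0 in at least 1 library and 36 were at 0 in all. Among the functional loci with no assembled transcript, 91 were above 0 somewhere, 64 were highest in B6.Sle1b replicate 1 and 6 were above 0 only there. Only 9 were above 0 in all 6 libraries. Ranked per kilobase, the 10 highest of these loci in B6.Sle1b replicates 1 and 3 had 7 in common. The other pairs of libraries shared 1 to 4 of 10, at depths of 107 to 294 fragments in the smaller libraries.

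No Ighv locus passed the test between genotypes. The test was limma on log2(scaled count + 1) over 19227 named loci whose mean reached 10. Of the 186 Ighv loci 39 met that minimum, 0 had a Benjamini-Hochberg adjusted p under 0.05, and percent called over all tested loci was 0. At an unadjusted limma p under 0.05 there were 2 Ighv loci, both lower in Sle1b.IFNγR-/-, against 3.1% of all tested loci (2.08% lower and 1.02% higher). Ighv3-5 was at 61.1, 10.7 and 31.9 in B6.Sle1b against 7.87, 12.4 and 4.79 in Sle1b.IFNγR-/-, with overlap, and its log2 difference was -1.71 (SE 0.62, limma adjusted p = 0.9998). Ighv6-7 was at 39.7, 17.3 and 21.6 against 14.9, 11.2 and 8.38, with no overlap, and its log2 difference was -1.07 (SE 0.48, limma adjusted p = 0.9998). It was the only one of the 39 whose levels did not overlap. Over all tested loci 8.7% did not overlap, 5.19% lower and 3.51% higher in Sle1b.IFNγR-/-.

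The next lowest p-values belonged to Ighv3-8, Ighv1-50 and Ighv1-26 in the lower direction, with log2 differences of -1.87 (SE 0.93), -3.16 (SE 1.75) and -2.78 (SE 1.60). In the higher direction they belonged to Ighv5-9, Ighv1-77, Ighv1-86, a locus named Ighv1-13 and Ighv15-2, with log2 differences of 0.22 to 0.84. All had a limma adjusted p of 0.9998. The median log2 difference of the 39 Ighv loci was -0.99, against -0.083 over all tested loci, and without B6.Sle1b replicate 1 it was -0.06. Of the 18 tested functional loci with no assembled transcript, 1 would have met the minimum over the other 5 libraries. Their lower values can therefore not be read apart from how they passed. Without B6.Sle1b replicate 1, 12 of these 18 were lower and 6 higher, with a median of -0.17. Without B6.Sle1b replicate 2, 15 of the 39 Ighv loci had an unadjusted limma p under 0.05, all lower, and the lowest adjusted p was 0.183. Of these 15, 11 were functional loci with no assembled transcript. In that fit 1741 of all 19227 tested loci had such a p, 1453 of them lower, and their median log2 difference over all loci was -0.173.

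Family shares over all 186 loci were alike in both genotypes for most families. Ighv1 (92 loci) held 55.6%, 60.8% and 53.7% of the Ighv sum in B6.Sle1b against 54.8%, 59.9% and 60.8% in Sle1b.IFNγR-/-. Ighv5 (23 loci) held 9.38%, 8.0% and 12.3% against 13.6%, 8.20% and 9.67%. Ighv3 (8 loci) held 9.46%, 4.77% and 7.27% against 5.07%, 4.80% and 2.46%. All 3 overlapped between the groups. Without pseudogenes Ighv3 did not, at 10.03%, 9.34% and 10.02% against 8.0%, 6.99% and 3.23% (exact permutation p = 0.1, adjusted p = 0.55), and it overlapped again in functional loci with no assembled transcript. Of 11 families with a mean sum of at least 10, 2 did not overlap, to be read beside the 8.7% of single loci that did not.

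Ighv8 (17 loci) held 7.29%, 6.32% and 7.47% of the Ighv sum in B6.Sle1b against 3.59%, 3.87% and 5.41% in Sle1b.IFNγR-/-. Its difference was -2.74 percentage points (exact permutation p = 0.1, Benjamini-Hochberg adjusted p = 0.55 over 11 families). Ighv10 (4 loci) held 1.45%, 2.58% and 2.29% against 3.96%, 3.72% and 4.43%, a difference of 1.93 percentage points (exact permutation p = 0.1, adjusted p = 0.55). In functional loci with no assembled transcript neither stood apart. There Ighv8 held 9.81%, 14.95% and 8.84% against 7.14%, 8.51% and 12.6%, and Ighv10 was a single locus at 0 to 11 fragments. Neither family passed the correction in either set of loci.

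In functional loci with no assembled transcript, the Ighv1 family (45 loci) had a smaller share in Sle1b.IFNγR-/-. It held 57.3%, 57.9% and 57.8% of that class in B6.Sle1b against 42.2%, 49.6% and 41.4% in Sle1b.IFNγR-/-. The 3 B6.Sle1b libraries agreed within 1 percentage point although replicate 1 had 2651 fragments in the class and replicate 2 had 107. The difference was -13.3 percentage points, without overlap (exact permutation p = 0.1, Benjamini-Hochberg adjusted p = 0.5 over 10 families). It was -13.5 percentage points without B6.Sle1b replicate 1. Ighv1 makes up 45 of the 95 loci, and equal values at every locus would give a share inside the Sle1b.IFNγR-/- range. The class averaged only 1.42, 1.67 and 1.40 scaled counts per locus there, and 0.926 in B6.Sle1b replicate 2. In these libraries 1, 0, 0 and 0 loci exceeded the silent 95th percentile, which was not adjusted for the longer Olfr exons. Whether the shares reflect V segment use or background was not tested. The counting error was wide, at 95% Wilson intervals of 48.5% to 66.9% for 62 of 107 fragments in B6.Sle1b replicate 2 and 41.5% to 57.8% for 70 of 141 in Sle1b.IFNγR-/- replicate 2, which overlap. The intervals of B6.Sle1b replicates 1 and 3 began at 55.4% and 52.1%, above the ends at 50.1% and 50.7% in Sle1b.IFNγR-/- replicates 1 and 3. Over all functional loci the Ighv1 difference was -3.02 percentage points and over all Ighv loci 1.82, so the result belongs to this class of loci and was seen after that class had been set up.

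**Figure D3:**
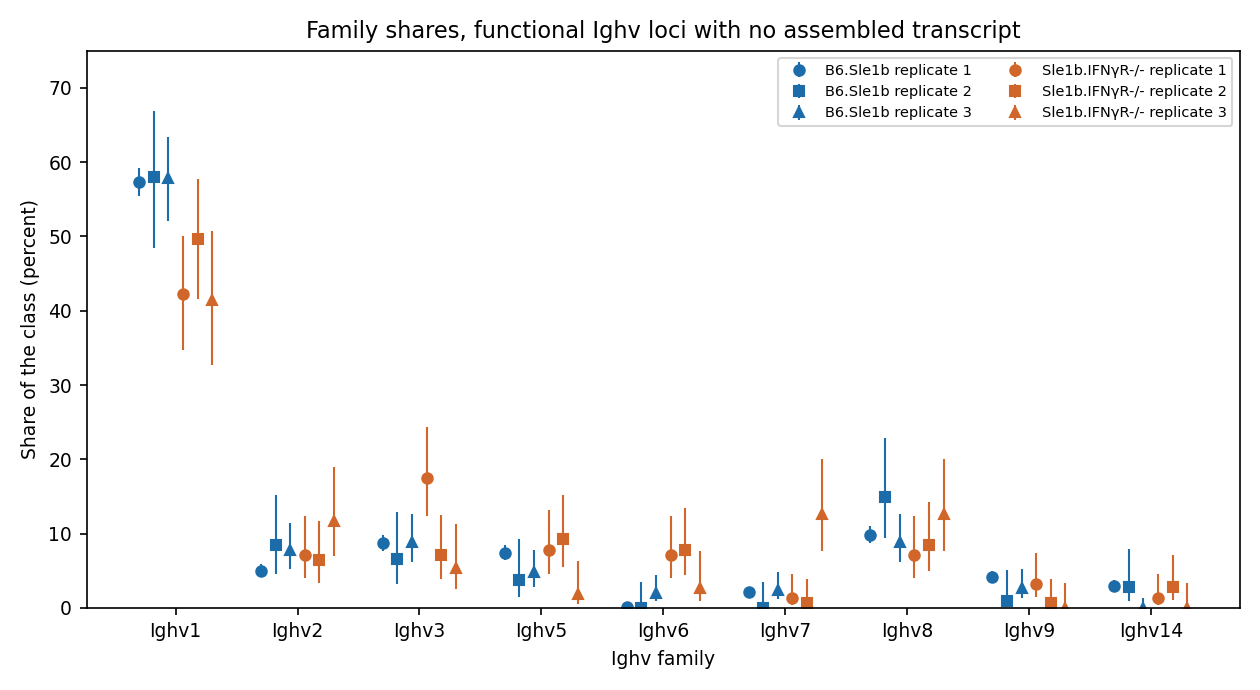
Share of each Ighv family in the fragments of functional loci with no assembled transcript, in percent; points are libraries, bars are 95% Wilson intervals (counting error only), blue is B6.Sle1b and orange Sle1b.IFNγR-/-. Ighv1 lies at 57.3% to 57.9% in the blue points and at 41.4% to 49.6% in the orange ones, where the bars of B6.Sle1b replicates 1 and 3 lie above those of Sle1b.IFNγR-/- replicates 1 and 3, and B6.Sle1b replicate 2 and Sle1b.IFNγR-/- replicate 2 overlap every bar of the other group.

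Ighv6 was the other family of this class without overlap, at 0.113%, 0% and 2.04% in B6.Sle1b against 7.14%, 7.80% and 2.70% in Sle1b.IFNγR-/- (exact permutation p = 0.1, adjusted p = 0.5). It rests on 3 loci and on 3, 0 and 6 fragments against 11, 11 and 3. For the 0 of 107 fragments the Wilson interval reaches 3.47%, above the lowest Sle1b.IFNγR-/- value. The nearest values of the groups, 6 of 294 and 3 of 111 fragments, had overlapping intervals of 0.939% to 4.38% and 0.923% to 7.65%. Ighv7 reached 12.6% in Sle1b.IFNγR-/- replicate 3 from 14 of 111 fragments, and lay between 0% and 2.38% in the other 5 libraries. Ighv3 was highest in Sle1b.IFNγR-/- replicate 1 at 17.5%, of which Ighv3-6 made up most.

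Position along the locus gave a similar picture to the Ighv1 family, with which it shares members. Functional loci with no assembled transcript were put into 3 equal groups by distance from the D segments. The far group (31 loci, chr12:115119748-115981134) held 47.3%, 55.1% and 48.3% of the class in B6.Sle1b against 36.4%, 33.3% and 43.2% in Sle1b.IFNγR-/-. The groups did not overlap, and the difference was -12.6 percentage points (exact permutation p = 0.1). It was -14.1 without B6.Sle1b replicate 1. The far group is 31 of the 95 loci, and its shares rest on the same low levels per locus as those of Ighv1. With 2 equal groups in place of 3, the near group (48 loci) held 44.7%, 31.8% and 39.5% against 59.7%, 48.9% and 51.4%, again without overlap (difference 14.7 percentage points, exact permutation p = 0.1). Of the 31 loci of the far group 25 are Ighv1, so family and position cannot be told apart in full. Within the far group, Ighv1 held 80.2%, 76.3% and 85.2% against 85.7%, 78.7% and 72.9% (exact permutation p = 0.8). Within the near and middle groups it held 36.8%, 35.4% and 32.2% against 17.3%, 35.1% and 17.5% (exact permutation p = 0.2). Both overlap between the genotypes.

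**Figure D4:**
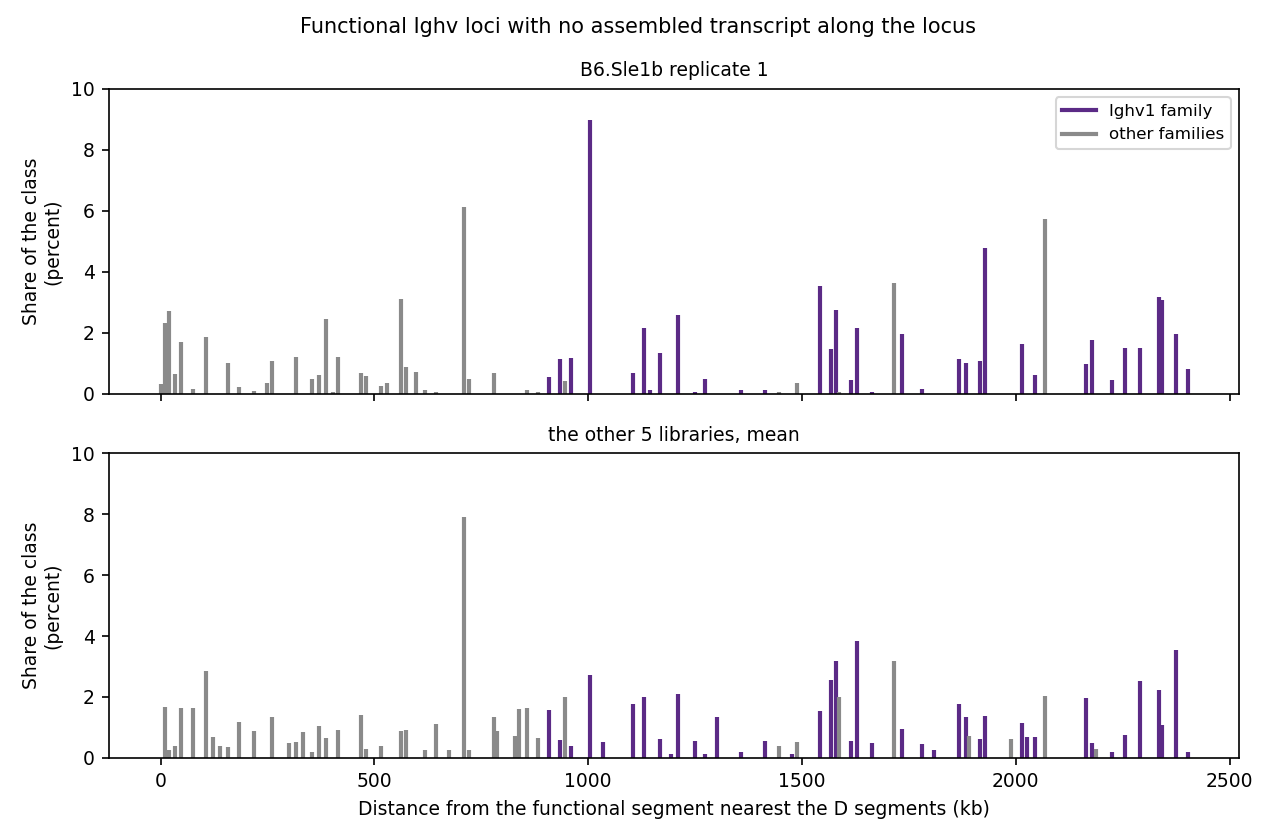
Share of each functional Ighv locus with no assembled transcript (percent of the class, y) against its distance in kilobases from the functional locus nearest the D segments (x), in B6.Sle1b replicate 1 and as the mean of the other 5 libraries; purple lines are Ighv1 loci and grey lines other families. Ighv1-9 reaches 8.98% in B6.Sle1b replicate 1, where Ighv3-6 (grey) is at 6.11%, and Ighv3-6 is the tallest line in the lower panel.

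Over all 186 loci the groups by position did not separate the genotypes. The group nearest the D segments held 30.9%, 22.1% and 29.1% of the Ighv sum in B6.Sle1b against 28.5%, 22.6% and 23.4% in Sle1b.IFNγR-/- (exact permutation p = 0.5). The difference was -2.52 percentage points, and -0.74 without B6.Sle1b replicate 1 and -5.17 without its replicate 2. The middle group, which holds Ighv1-23, Ighv1-25 and the merged Ighv1-38 locus, held 28.6%, 51.5% and 40.04% against 45.4%, 49.1% and 50.7%. Its share was lowest in B6.Sle1b replicate 1, which had the highest Ighv sum, and highest in B6.Sle1b replicate 2, which had the lowest. Within Sle1b.IFNγR-/- the share rose with the Ighv sum instead. The part of the steady loci in these shares was not tested.

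Concentration, the degree to which a few segments hold most of the sum, was compared over 6 measures. Over all loci the highest segment held 6.64%, 15.4% and 8.86% in B6.Sle1b against 9.41%, 10.8% and 11.5% in Sle1b.IFNγR-/-. The 10 highest held 34.9%, 56.5% and 41.6% against 50.9%, 52.2% and 55.9%. The inverse Simpson number, which counts how many equally used segments would give the same concentration, was 46.8, 18.8 and 35.5 against 27.5, 25.2 and 21.5. B6.Sle1b replicates 1 and 2 were the least and the most concentrated libraries, so the groups overlapped. The exact permutation p was 0.9 for the highest segment (Benjamini-Hochberg adjusted p = 0.9 over 6 measures). For the 10 highest and for the inverse Simpson number it was 0.4 each (adjusted p = 0.6). The difference in the inverse Simpson number was -8.98, and -2.42 without replicate 1 and -16.4 without replicate 2. For the 10 highest it was 8.62 percentage points, and 3.90 and 14.7 without those libraries.

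In functional loci with no assembled transcript the libraries were more alike. The inverse Simpson number was 31.5, 26.0 and 36.1 in B6.Sle1b against 26.4, 25.8 and 27.8 in Sle1b.IFNγR-/- (exact permutation p = 0.3). The difference was -4.52, and -7.12 without B6.Sle1b replicate 2 and -2.06 without its replicate 3. Libraries with fewer fragments detect fewer segments, which were 74, 36 and 59 against 47, 38 and 39. At an equal 107 fragments the expected number was 41.7, 36 and 45.2 against 42.7, 35.4 and 38.5. The inverse Simpson number corrected for counting was 31.8, 34.0 and 41.0 against 31.6, 31.3 and 36.8 (exact permutation p = 0.5). No single segment took over a library, and the highest share within the class was 12.99%, by Ighv3-6 in Sle1b.IFNγR-/- replicate 1 (20 of 154 fragments, 95% Wilson interval 8.57% to 19.2%).

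Shares of single segments in the Ighv sum did not overlap between genotypes for 2 of the 39 tested loci (5.13%, beside 8.7% of all tested loci by level), both higher in Sle1b.IFNγR-/-. Ighv5-9 held 0.447%, 1.55% and 0.896% in B6.Sle1b against 2.23%, 2.48% and 4.26% in Sle1b.IFNγR-/-. Ighv1-77 held 1.03%, 2.58% and 1.99% against 4.83%, 4.18% and 5.08%. Both loci hold assembled transcripts. A share near the background is not a result about these segments.

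The genes that recombine and express the heavy chain were taken as lists. With all 6 libraries none had a gene with a limma adjusted p under 0.05. Of 9 tested V(D)J recombination genes 8 were lower and 1 higher in Sle1b.IFNγR-/-, with a median log2 difference of -0.17 against -0.083 over all tested loci, and 0 had an unadjusted limma p under 0.05. Without B6.Sle1b replicate 1 the direction of this list turned, with 4 lower and 5 higher and a median of 0.22, and with any other library left out the median was -0.34 to -0.079. Of 8 constant regions 7 were lower and 1 higher, with a median of -0.99. The lower ones with an unadjusted limma p under 0.05 were Ighg3, Ighg2c, Ighm, Ighg2b and Ighg1, and without B6.Sle1b replicate 1 the median was -0.49. The number of lower ones with such a p was 2 without Sle1b.IFNγR-/- replicate 1 or 2 and 3 without its replicate 3. Without B6.Sle1b replicate 1, Ighg2c and Ighg3 were lower and Igha was higher in Sle1b.IFNγR-/- (limma adjusted p = 0.0109, 0.0109 and 0.0153). Without B6.Sle1b replicate 2, Ighg2c and Ighg3 were lower (limma adjusted p = 0.0131 and 0.0192). Of 9 tested antibody-forming cell genes 9 were lower, 4 of them at an unadjusted limma p under 0.05, with a median of -0.94. Without B6.Sle1b replicate 1 their median was -0.40 and 0 were under that p, and without replicate 2 it was -1.57 and 8 were. Over all 19227 tested loci, 1741 were under that p without replicate 2, beside 596 with all 6 libraries. Without Sle1b.IFNγR-/- replicate 1, 2 of these antibody-forming cell genes were under it. Their sum was 1806, 352 and 528 scaled counts in B6.Sle1b against 329, 337 and 361 in Sle1b.IFNγR-/-, with overlap. B cell genes (12 tested, 9 lower and 3 higher) had a median of -0.18 and turned to 0.18 without B6.Sle1b replicate 1 and to -0.63 without replicate 2. The part of these cells in the Ighv values was not tested.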

How the data were processed

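RNA sequencing libraries of 6 spleen samples were used, 3 per genotype. Libraries were made with an amplification kit (NuGEN Ovation V2), per the labels' protocols. The submitters' processing notes name build GRCm38 and the tools Cufflinks 2.2.1, TopHat2 2.0.9 and CASAVA. The deposited signal is a fragment count per locus that the authors scaled between libraries, per the file headers, and 24 other columns of per-sample values were not used. Rows (1530481) were collapsed to 426574 loci. In each library at least 99.78% of positive values, and all Ighv values, were within 0.01 of a whole multiple of 1 step (0.822 to 1.198). Dividing by the step gave fragments for the Wilson intervals, but the values were treated as scaled signal, so the test for scaled values applied. Ighv loci (488 rows, 183 names, 186 loci) all matched GENCODE release 21, with exonic lengths of 244 to 480 bases.

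Named loci whose mean reached 10 were fitted on log2(value + 1), a scale that understates changes of low loci, with limma 3.58.1 (R 4.3.3), using its intensity trend and a model with genotype alone. The procedure was tested on simulated data. Two-sided exact permutation tests compared the shares and sums (scipy 1.17.1, python 3.11.15, pandas 2.3.3, numpy 2.4.6; figures with matplotlib 3.10.9). Wilson intervals are at 95% and cover counting error only. Segments named are the 10 of highest mean share, the 3 highest of each library, the 5 of smallest p in each direction and 4 known segments; others were named after their values were seen. The members, lists and tests were chosen with earlier results of these data known. Alternatives covered scaling, pseudocount, low-value filter, replicate block, loci used and leaving out each library.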

Additional observations from a re-analysis of the deposited data

How the results depend on the processing

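The count of Ighv loci with a limma adjusted p under 0.05 was 0 in every setting run. The replicate numbers did not pair the samples (correlations of same-numbered deviations of 0.012, -0.027 and -0.011). With the replicate block 0 of 39 Ighv loci were called and 2 had an unadjusted limma p under 0.05, beside 567 of all 19227 tested loci. That count was 17 of 150 Ighv loci with no filter on low values, beside 1249 of all 35092. It was 5 of 39 with a pseudocount of 10, beside 638 of 19227. With 1 library left out it was 0 to 15 of 39, beside 454 to 1741 of 19227. Planned edgeR and DESeq2 fits were not run, since the values were kept as scaled signal. Restricting to functional loci with no assembled transcript, chosen after seeing the data, turned Ighv per constant region to -1.30 (-3.21 to 1.13 with 1 library left out, 1.13 without B6.Sle1b replicate 1 and -3.21 without its replicate 2), the Ighv1 difference to -13.3 (-3.02 without pseudogenes only) and the difference in the share nearest the D segments to 3.96 percentage points. Without pseudogenes only, Ighv per constant region differed by 4.05. With 2 groups by position in place of 3, the near share differed by 0.33 percentage points over all loci and by 14.7 in the restricted class. With 1 library left out, the functional share differed by -17.95 to 2.97 percentage points (2.97 without B6.Sle1b replicate 1), 2 to 5 families did not overlap (5 without B6.Sle1b replicate 2, 4 without Sle1b.IFNγR-/- replicate 3), the highest segment's share differed by -1.54 to 2.82 (-1.54 without B6.Sle1b replicate 1, -0.43 without its replicate 3, -0.17 without Sle1b.IFNγR-/- replicate 3) and that of the 3 highest by -0.0903 to 8.46. The count of segment shares without overlap was 0 at a mean of at least 50, where only 2 segments remained. It was 4 to 18 of 39 with 1 library left out (18 without B6.Sle1b replicate 2), where fewer samples make overlap rarer. As a share of the Ighv sum, log2 differences turned to 0.71 for Ighv1-23, 0.72 for Ighv1-25, 0.68 for Ighv1-38, 0.64 for Ighv6-1, 0.60 for Ighv1-73, 0.76 for Ighv10-1 and 0.18 for Ighv1-76; median-ratio scaling gave 0.017 for Ighv10-1. With 1 library left out, 9 of 126 log2 differences reversed (lowest limma adjusted p 0.972), and the ranges of those segments were -0.30 to 0.045 for Ighv1-23, -0.22 to 0.072 for Ighv1-25, -0.42 to 0.016 for Ighv6-1, -0.44 to 0.19 for Ighv1-73, -0.37 to 0.33 for Ighv10-1, -2.29 to 0.079 for Ighv5-17, -2.29 to 0.023 for Ighv3-6 and -0.17 to 0.56 for Ighv15-2. List genes called numbered 0 to 3 (3 without B6.Sle1b replicate 1, 2 without replicate 2, all of them constant regions). Other causes of these changes were not tested.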
